A study of Homo sapiens with 12 samples.

Results

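The genes described here are 10 members of the bone morphogenetic protein (BMP) pathway and of its inhibitor of DNA binding (ID) target family, among 31585 distinct gene loci measured by RNA-seq in A375 cells. They were chosen by symbol, each matched 1 locus that carries no other symbol, and they comprise the ligands BMP2, BMP4 and BMP7, the secreted antagonists GREM1 and NOG, the inhibitory SMAD6, and ID1, ID2, ID3 and ID4. A375 is a hypotriploid human melanoma line. It had been infected with a retrovirus holding either the empty MSCV-IRES-Hygro vector (Control) or a human YAP mutant, and hygromycin selected the stably transduced cells of all 4 groups. YAP is a transcriptional co-activator that binds DNA through the TEAD factors and is held back by the LATS kinases. YAP-S127A lacks the serine through which LATS keeps YAP in the cytoplasm. YAP-2SA (S127A,S381A) also lacks a serine through which LATS marks YAP for degradation. YAP-S127A,S94A (S94A,S127A in the labels) cannot bind TEADs. Each group has 3 libraries, from cells cultured for 24 h per the labels, while the study's methods give a longer culture. The study describes independent RNA samples of stably transduced cells and reports no separate infections. The libraries were taken as replicate platings of 1 transduced population. On that reading the p values measure the spread between platings of a line and not between independent infections. One label field and the series' design text add S94A to the mutations of the YAP-2SA cells, but the sample titles do not, and these libraries were taken as S127A,S381A.

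BMPs are secreted ligands that bind paired type I and type II serine/threonine kinase receptors, which phosphorylate SMAD1, SMAD5 and SMAD9, and these enter the nucleus with SMAD4 to switch on genes. The ID genes are classical immediate targets, and their products lack a DNA-binding region and capture the E proteins TCF3, TCF4 and TCF12, so that basic helix-loop-helix dimers cannot bind DNA. The pathway is restrained outside the cell by antagonists such as noggin and gremlin that hold the ligands, and inside by SMAD6, itself induced by BMP signals. In the melanocytic lineage BMP signals are known to act on neural crest specification and on pigment cell development.

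Promoter sequences of 4 of these genes are shown because they hold short motifs of the factors the experiment and the pathway turn on, and because the 4 genes differed in how they moved. They come from RefSeq with build GRCh38.p14 and run 5′ to 3′ on the gene's strand, from 250 bases before the start to 6 bases into the transcript. Windows were found for 7 of the 10 members, all but BMP2, BMP7 and NOG. Capitals mark the TEAD core CATTCC in ID4 (chr6:19837120-19837375, plus strand), BMP4 (chr14:53953390-53953645, minus strand, 1 of its 3 windows) and ID1 (chr20:31605039-31605294, plus strand), and the palindromic SMAD element GTCTAGAC in SMAD6 (chr15:66701986-66702241, plus strand).
ID4: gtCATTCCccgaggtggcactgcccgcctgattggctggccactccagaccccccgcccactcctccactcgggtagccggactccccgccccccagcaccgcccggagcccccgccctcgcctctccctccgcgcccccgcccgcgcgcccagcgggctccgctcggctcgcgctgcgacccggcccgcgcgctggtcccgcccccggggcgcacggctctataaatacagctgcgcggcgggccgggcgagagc
BMP4: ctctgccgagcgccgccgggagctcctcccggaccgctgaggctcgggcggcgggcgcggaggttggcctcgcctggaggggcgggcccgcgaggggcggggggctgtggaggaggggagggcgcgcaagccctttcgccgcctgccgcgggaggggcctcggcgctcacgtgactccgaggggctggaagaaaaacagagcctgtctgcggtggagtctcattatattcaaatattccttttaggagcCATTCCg
ID1: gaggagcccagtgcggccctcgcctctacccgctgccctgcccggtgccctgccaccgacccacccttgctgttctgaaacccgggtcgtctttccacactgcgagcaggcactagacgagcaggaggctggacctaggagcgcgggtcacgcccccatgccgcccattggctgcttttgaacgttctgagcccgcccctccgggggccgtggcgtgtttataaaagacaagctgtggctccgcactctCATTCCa
SMAD6: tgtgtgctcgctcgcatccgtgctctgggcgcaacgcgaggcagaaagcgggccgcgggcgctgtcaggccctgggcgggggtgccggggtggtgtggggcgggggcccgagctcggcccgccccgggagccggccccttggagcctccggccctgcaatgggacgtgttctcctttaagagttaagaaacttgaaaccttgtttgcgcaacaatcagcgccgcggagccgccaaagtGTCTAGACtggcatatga
The match began 248 bases before the start in ID4, 1 base before the start in both BMP4 and ID1, and 12 bases before the start in SMAD6. Searched on both strands in windows of 300 bases that reach 50 bases past the start, CATTCC was present in 14.03% of 35116 promoter windows, and GTCTAGAC in 0.2022%. Another SMAD motif, the GC-rich GGCGCC, was present in 19.22% of the windows and, among the members, in a BMP4 and a GREM1 window. These are matches of letters in a short window and do not show binding.

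The deposited values are log2(FPKM + 1) per locus, where FPKM is a fragment count scaled to transcript length and to the mapped fragments of the library. Levels can thus be compared roughly between genes as well as between libraries, whose summed FPKM ran from 790865 to 901558. The depth of the libraries is unknown, since the files hold no read counts, and the number of loci above 0 ran from 20161 to 20656. YAP1, which the vectors encode, was at 130 to 187 FPKM in the 9 libraries of YAP mutants and at 34.1 and 33.0 FPKM in Control replicates 1 and 2, but at 172 FPKM in the library labelled Control replicate 3, so the calls against Control described here that changed without that library are given both ways. The YAP-TEAD target CTGF had group means of 12.5 FPKM in Control, 11.2 FPKM in YAP-S127A,S94A, 24.8 FPKM in YAP-S127A and 57.9 FPKM in YAP-2SA. Control replicates 1, 2 and 3 gave 12.7, 12.2 and 12.7 FPKM for CTGF. For the YAP/TAZ targets CYR61 (on a locus with another symbol) and ANKRD1, Control replicate 3 gave 19.7 and 0.335 FPKM. Replicates 1 and 2 gave 15.3 and 15.6 FPKM for CYR61, and 0.638 and 1.26 FPKM for ANKRD1. In YAP-S127A the lowest libraries held 36.1 FPKM of CYR61 and 3.67 FPKM of ANKRD1. Why YAP1 was high in Control replicate 3 was not tested. The melanocytic label was checked against 7 markers: the neural crest factor SOX10 had a mean of 263 FPKM in Control and 6.16 FPKM in YAP-2SA, S100B of 46.9 and 0.807 FPKM, and MITF of 8.59 and 35.0 FPKM, and the pigment genes PMEL, MLANA, TYR and DCT stayed below 0.6 FPKM in every library. The summed level of 3 fibroblast markers lay between 1.68 and 2.91 FPKM in Control, between 8.05 and 10.5 FPKM in YAP-S127A and between 31.0 and 38.7 FPKM in YAP-2SA. In the same order of groups, COL1A1 had means of 0.322, 7.27 and 33.4 FPKM. LUM had means of 1.38, 1.80 and 2.30 FPKM, and DCN of 0.461, 0.270 and 0.178 FPKM. The blood marker PTPRC was at or near 0. The summed level of 3 keratinocyte markers lay between 6.24 and 7.62 FPKM in Control and between 1.92 and 2.07 FPKM in YAP-2SA, where KRT14 was lower (6.87 against 0.434 FPKM) and KRT5 higher (0.0282 against 1.56 FPKM). That of 2 endothelial markers lay between 0.122 and 0.220 FPKM in Control and between 0.521 and 0.593 FPKM in YAP-2SA. The part of these marker shifts in the results on BMP and ID genes was not tested.

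Levels spread widely among the 10 members. In Control cells ID1 and ID3 were the highest, at 58.1 ± 6.74 and 39.3 ± 4.35 FPKM (SD, n = 3), and SMAD6 followed at 7.10 ± 1.09 FPKM. ID4, BMP2, ID2, BMP4 and BMP7 had means between 1.33 and 3.78 FPKM, and the last 3 of these overlapped one another. NOG was at 0.125 FPKM and GREM1 was listed at 0. A locus was tested when it reached 1 FPKM in at least 3 of the 12 libraries, which 9 of the 10 members did. NOG passed only through the 3 YAP-2SA libraries, BMP7 through 6 libraries that include none of YAP-2SA, and ID4 through the 9 libraries outside YAP-2SA, so counts over the members that passed are given as a description. The members were also chosen with earlier results of these data known.

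**Figure D1:**
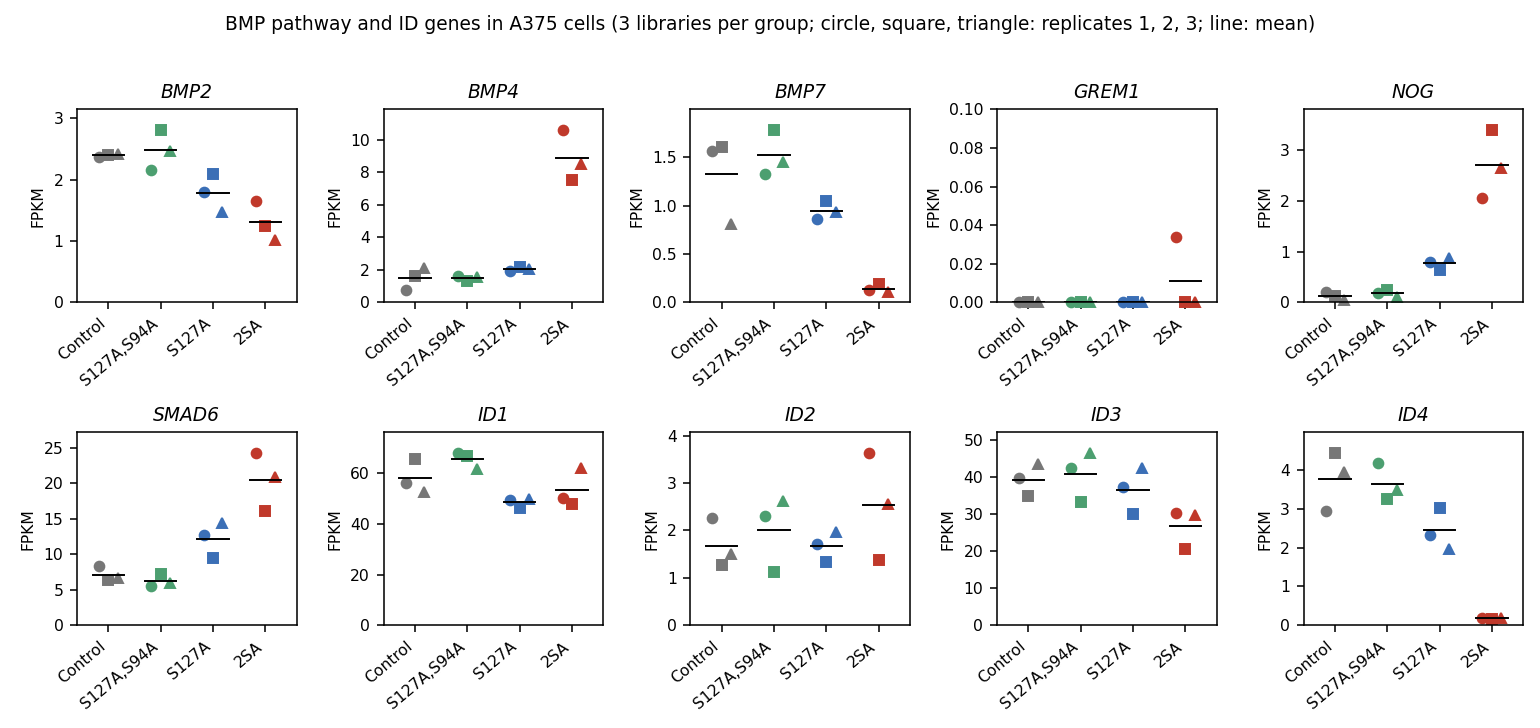
FPKM of the 10 genes (vertical axes, each from 0 with its own range) in the 4 groups (horizontal axis, YAP omitted from the names), with 1 symbol per library for replicates 1, 2 and 3 and a line at the mean of the 3 libraries. YAP-2SA libraries lay apart from all others for BMP4, BMP7, NOG, SMAD6 and ID4, and those of ID1 and ID2 overlapped Control.

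YAP-2SA cells were compared with Control cells to ask what YAP freed from LATS at both serines does to these genes. BMP4 (5.93-fold), NOG (21.6-fold, or 33.0-fold without Control replicate 1) and SMAD6 (2.87-fold) rose, and ID4 (21.9-fold) and BMP7 (9.53-fold) fell. ID1 and ID2 did not pass the test, and BMP2 and ID3 were lower by less than 2-fold. A gene is counted as changed at a Benjamini-Hochberg adjusted p under 0.05 from limma, fitted over all 15055 loci tested, together with a ratio of group mean FPKM over 2, and 15.5% of all loci tested met both in this comparison (7.59% higher and 7.86% lower). Of the 9 members tested, 3 were higher and 2 lower on this rule. With the adjusted p alone 7 of the 9 passed, 3 higher and 4 lower, against 42.3% of all loci in either direction, and ID3 was the one that did not pass without Control replicate 3. The libraries of the groups did not overlap for 7 of the 9, against 52.8% of loci. All 5 changes also passed both thresholds without Control replicate 3. The median log2 fold change of the 9 was -0.12 and that of all loci was 0.01. In bulk RNA, fewer cells that express a gene and less RNA per cell cannot be told apart.

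BMP4, a ligand that patterns the neural tube and neural crest (GRCh37 chr14:54416454-54425479, minus strand), was at 10.6, 7.53 and 8.50 FPKM in the YAP-2SA libraries. It was at 0.751, 1.61 and 2.12 FPKM in Control, 1.59, 1.30 and 1.58 FPKM in YAP-S127A,S94A, and 1.95, 2.16 and 2.07 FPKM in YAP-S127A. Every YAP-2SA library was thus above every other library, and the other 3 groups lay close together, with Control the most spread. The log2 fold change of YAP-2SA against Control was 2.01 (SE 0.19, adjusted p = 8.73e-06, limma and Benjamini-Hochberg), and against YAP-S127A it was 1.68 (adjusted p = 5.81e-05). YAP-S127A exceeded Control by 0.33 on the log2 scale, with a 95% interval from -0.08 to 0.75 and an adjusted p of 0.376. The difference was 0.10 without Control replicate 1, the lowest Control library, and 0.51 without Control replicate 3, the highest.

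BMP7, a ligand with roles in kidney and skeletal development (GRCh37 chr20:55743809-55841697, minus strand), moved the other way. Its FPKM was 0.127, 0.188 and 0.102 in YAP-2SA against 1.57, 1.61 and 0.805 in Control, 1.32, 1.78 and 1.45 in YAP-S127A,S94A, and 0.863, 1.05 and 0.929 in YAP-S127A. All YAP-2SA libraries were below all others, and YAP-S127A lay below every YAP-S127A,S94A library but overlapped Control only through Control replicate 3. YAP-2SA was 1.01 lower than Control on the log2 scale (log2 fold change -1.01, SE 0.14, adjusted p = 1.86e-04 from limma), and -1.18 was obtained without Control replicate 3. The ratio of mean FPKM was 9.53, or 11.4 without Control replicate 3. Against YAP-S127A the log2 fold change was -0.77 (adjusted p = 0.00177). YAP-S127A against YAP-S127A,S94A gave -0.37 (adjusted p = 0.132), which passed when Control replicate 3 was left out of the shared spread (adjusted p = 0.0374).

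BMP2, an osteogenic ligand closely related to BMP4 (GRCh37 chr20:6748333-6760893, plus strand), had a narrow Control range, at 2.36, 2.41 and 2.42 FPKM. It was at 2.16, 2.81 and 2.46 FPKM in YAP-S127A,S94A, at 1.80, 2.09 and 1.47 FPKM in YAP-S127A, and at 1.66, 1.24 and 1.02 FPKM in YAP-2SA. Neither LATS-insensitive mutant overlapped Control, although they overlapped each other. The log2 fold change against Control was -0.57 (SE 0.12, adjusted p = 0.00333 from limma) in YAP-2SA, with a ratio of 1.84, and -0.29 (adjusted p = 0.218) in YAP-S127A. Without YAP-2SA replicate 1, the highest of its group, the first was -0.68 (adjusted p = 0.00163) and BMP2 met both thresholds. The 3 ligands therefore differed in direction within the same cells: from Control to YAP-2SA the mean went from 1.495 to 8.87 FPKM for BMP4, from 2.40 to 1.30 FPKM for BMP2 and from 1.33 to 0.139 FPKM for BMP7.

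NOG encodes noggin, which binds BMP4 and BMP2 tightly and blocks their receptor contacts (GRCh37 chr17:54671060-54672972, plus strand). It was at 2.06, 3.40 and 2.64 FPKM in YAP-2SA, 0.795, 0.640 and 0.882 FPKM in YAP-S127A, 0.211, 0.120 and 0.0439 FPKM in Control, and 0.192, 0.238 and 0.103 FPKM in YAP-S127A,S94A. The order of the groups was YAP-2SA, YAP-S127A, and then YAP-S127A,S94A with Control, and only the last pair overlapped. Only the YAP-2SA libraries brought NOG past the filter, so it had to be high there to be tested. The log2 fold change against Control was 1.70 (SE 0.13, adjusted p = 2.19e-06 from limma) in YAP-2SA and 0.66 (SE 0.13, adjusted p = 0.0145) in YAP-S127A. On this scale 1 is added to every FPKM, so the change of a low gene such as NOG is understated beside its 21.6-fold and 6.19-fold ratios of mean FPKM. Those ratios were 33.0 and 9.45 without Control replicate 1, the highest Control library. YAP-2SA was above YAP-S127A by 1.05 (adjusted p = 1.46e-04), and YAP-S127A was above YAP-S127A,S94A by 0.59 (adjusted p = 0.0180), a ratio of 4.35. Of these, the 2 changes that involve YAP-S127A without YAP-2SA were near the threshold. The change against Control missed it when Control replicate 2 or 3 or YAP-S127A replicate 1 or 3 was left out (adjusted p between 0.0502 and 0.0580). The change against YAP-S127A,S94A missed it without replicate 1 or 3 of either group (adjusted p up to 0.0742).

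GREM1, which encodes the BMP antagonist gremlin (GRCh37 chr15:33010205-33037307, plus strand), was listed at 0 in 11 libraries. The exception was YAP-2SA replicate 1, at 0.0338 FPKM. It was not tested, and no fold is given.

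SMAD6, which keeps activated receptors from passing the signal to SMAD1 and SMAD5 (GRCh37 chr15:66994574-67075187, plus strand), was at 24.3, 16.0 and 20.9 FPKM in YAP-2SA and at 12.6, 9.44 and 14.4 FPKM in YAP-S127A. In Control it was at 8.34, 6.35 and 6.59 FPKM and in YAP-S127A,S94A at 5.54, 7.20 and 5.89 FPKM. The same order as for NOG was seen, with no overlap except between Control and YAP-S127A,S94A. The log2 fold change was 1.39 (SE 0.18, adjusted p = 9.94e-05 from limma) for YAP-2SA against Control, and 0.70 (adjusted p = 0.0119) for YAP-2SA against YAP-S127A, a ratio of 1.68. YAP-S127A was above Control by 0.69 (adjusted p = 0.0471, a ratio of 1.71), and leaving out any of 8 single libraries, or using any of 3 other settings, took that adjusted p over 0.05, to at most 0.151. It was above YAP-S127A,S94A by 0.86 (adjusted p = 0.0122, a ratio of 1.96). That change missed the threshold only when YAP-S127A,S94A replicate 1 was left out (adjusted p = 0.0511).

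Of the ID genes, ID4 alone met both thresholds in YAP-2SA against Control. ID4, known for its roles in neural precursors (GRCh37 chr6:19837601-19842428, plus strand), was at 0.188, 0.147 and 0.184 FPKM in YAP-2SA against 2.94, 4.45 and 3.96 FPKM in Control. It was at 4.18, 3.25 and 3.50 FPKM in YAP-S127A,S94A and at 2.34, 3.03 and 1.96 FPKM in YAP-S127A. YAP-2SA libraries lay far below all others, YAP-S127A lay below YAP-S127A,S94A, and YAP-S127A overlapped Control through its highest library and the lowest Control library. The log2 fold change was -2.01 (SE 0.14, adjusted p = 1.06e-06 from limma) for YAP-2SA against Control and -1.54 (adjusted p = 1.49e-05) for YAP-2SA against YAP-S127A, whose means differed 14.1-fold. It was -0.47 (95% interval -0.79 to -0.15, adjusted p = 0.0894) for YAP-S127A against Control and -0.44 (adjusted p = 0.0827) for YAP-S127A against YAP-S127A,S94A. Both passed the adjusted p without YAP-S127A replicate 2 (0.0450 and 0.0429), and the first also without Control replicate 1 (0.0361).

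ID1, a common readout of BMP signals (GRCh37 chr20:30193086-30194318, plus strand), was at 50.2, 47.9 and 62.1 FPKM in YAP-2SA and at 56.1, 65.7 and 52.7 FPKM in Control. These groups overlapped, and the log2 fold change was -0.12 with a 95% interval from -0.35 to 0.11 (adjusted p = 0.370 from limma), so the interval holds no change as large as 2-fold. YAP-S127A, at 49.4, 46.3 and 49.9 FPKM, was below all 3 YAP-S127A,S94A libraries, at 68.1, 66.9 and 61.8 FPKM. That difference of -0.43 passed the adjusted p (0.0256, a ratio of 1.35) and missed it without replicate 1 or 2 of YAP-S127A,S94A or without any single YAP-S127A library (0.0536 to 0.0881).

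ID3, which acts beside ID1 in vascular and neural development (GRCh37 chr1:23884417-23885992, minus strand), was at 30.3, 20.5 and 29.6 FPKM in YAP-2SA and at 39.7, 34.8 and 43.4 FPKM in Control. The groups did not overlap, and the log2 fold change was -0.55 (SE 0.18, adjusted p = 0.0304 from limma, a ratio of 1.47). Without Control replicate 1, Control replicate 3 or YAP-2SA replicate 2 the adjusted p was 0.0711, 0.0992 and 0.110. YAP-S127A, at 37.4, 29.9 and 42.4 FPKM, overlapped Control, and so did YAP-S127A,S94A, at 42.5, 33.2 and 46.5 FPKM. ID2, a regulator of lymphoid and mammary development (GRCh37 chr2:8818975-8824591, plus strand), was at 3.63, 1.38 and 2.56 FPKM in YAP-2SA and at 2.26, 1.27 and 1.49 FPKM in Control. It overlapped in all 5 comparisons, and its interval for YAP-2SA against Control ran from -0.22 to 0.95. Values from a small fall to a rise of 0.95 on the log2 scale are thus compatible with these libraries.

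**Figure D2:**
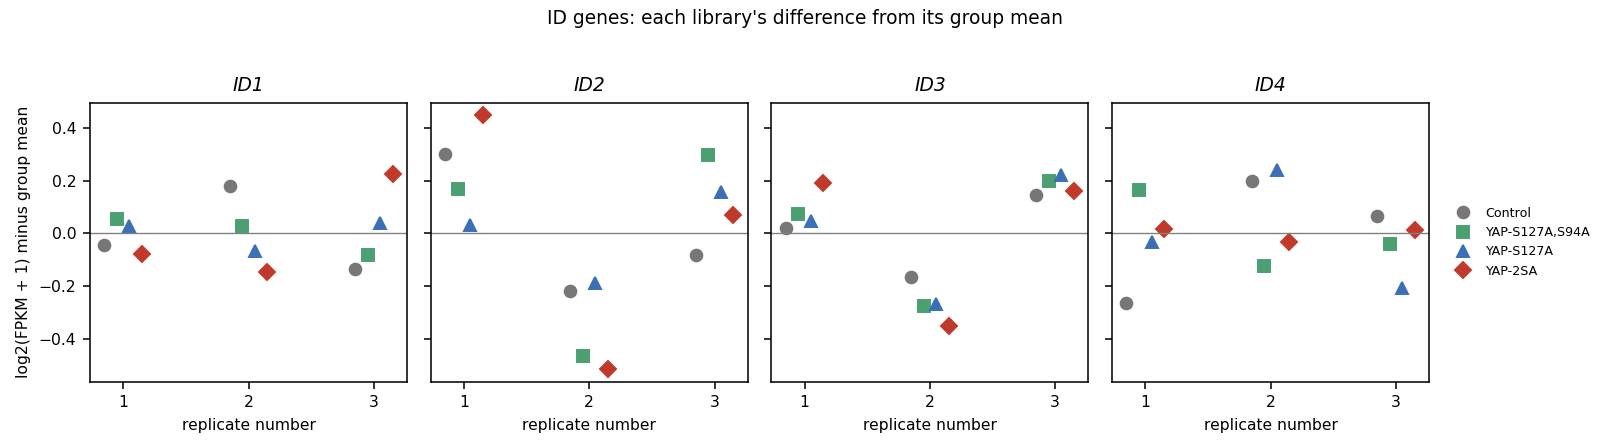
Difference of each library's log2(FPKM + 1) from its group mean (vertical axis) by replicate number (horizontal axis) for ID1, ID2, ID3 and ID4, with 1 symbol per library. Replicate 2 is the lowest of its group for ID2 and ID3 in all 4 groups, while ID1 and ID4 show no such order.

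The spread of ID2 and ID3 within groups had a shared feature, which was chosen after its values were seen. Replicate 2 was the lowest library of its group for both genes in Control, YAP-S127A,S94A, YAP-S127A and YAP-2SA. For ID2 the deviation of replicate 2 from its group mean ran from -0.52 in YAP-2SA to -0.19 in YAP-S127A on the log2 scale, and for ID3 from -0.35 in YAP-2SA to -0.17 in Control. The labels tie the replicate numbers to no batch, and over all loci the libraries with the same number did not deviate together. The plot of each library's difference from its group mean shows the 4 ID genes side by side.

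YAP-S127A was compared with Control for the effect of the single mutation. Of the 9 members tested, NOG alone met both thresholds, against 2.47% of all loci tested (2.07% higher and 0.405% lower), and with the adjusted p alone NOG and SMAD6 were higher, against 6.31% of loci. Groups did not overlap for 4 members, BMP2, NOG, SMAD6 and ID1, against 21.3% of loci. NOG and SMAD6 both lost the call without Control replicate 3 (adjusted p of 0.0580 and 0.134 from limma), so no member passed both thresholds without it.

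The second LATS site was examined by comparing YAP-2SA with YAP-S127A. Both thresholds were met by 4 of the 9 members, against 11.1% of all loci (5.17% higher and 5.94% lower). BMP4 and NOG were higher, and BMP7 and ID4 were lower. The adjusted p alone added SMAD6, against 32.8% of loci, and the groups did not overlap for 5 members, against 43.6%. These 4 passed both thresholds with any single library left out. YAP1 itself was not higher in YAP-2SA, whose 3 libraries lay below those of YAP-S127A.

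S94A, which removes TEAD binding, was examined in 2 ways. YAP-S127A,S94A against Control had no member past both thresholds or past the adjusted p alone in limma, against 0.173% and 0.179% of all loci, and no member at an unadjusted p under 0.05, against 4.39%. The log2 fold changes of the 9 members ran from -0.17 for SMAD6 to 0.18 for ID1, the adjusted p was 1 for each, and no member's groups were apart, against 8.67% of loci. Widest was the 95% interval of ID2, from -0.43 to 0.74, and narrowest that of ID1, from -0.05 to 0.41. YAP-S127A against YAP-S127A,S94A shares no library with YAP-2SA against Control, but the fit uses the same estimate of the spread for both. In this comparison NOG met both thresholds, against 3.49% of all loci (2.54% higher and 0.95% lower), and SMAD6 (higher) and ID1 (lower) passed the adjusted p alone, against 10.7%. The groups did not overlap for 7 of the 9 members, against 29.4% of loci. BMP4, NOG and SMAD6 were higher in all YAP-S127A libraries, and BMP2, BMP7, ID1 and ID4 were lower in all of them.

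**Figure D3:**
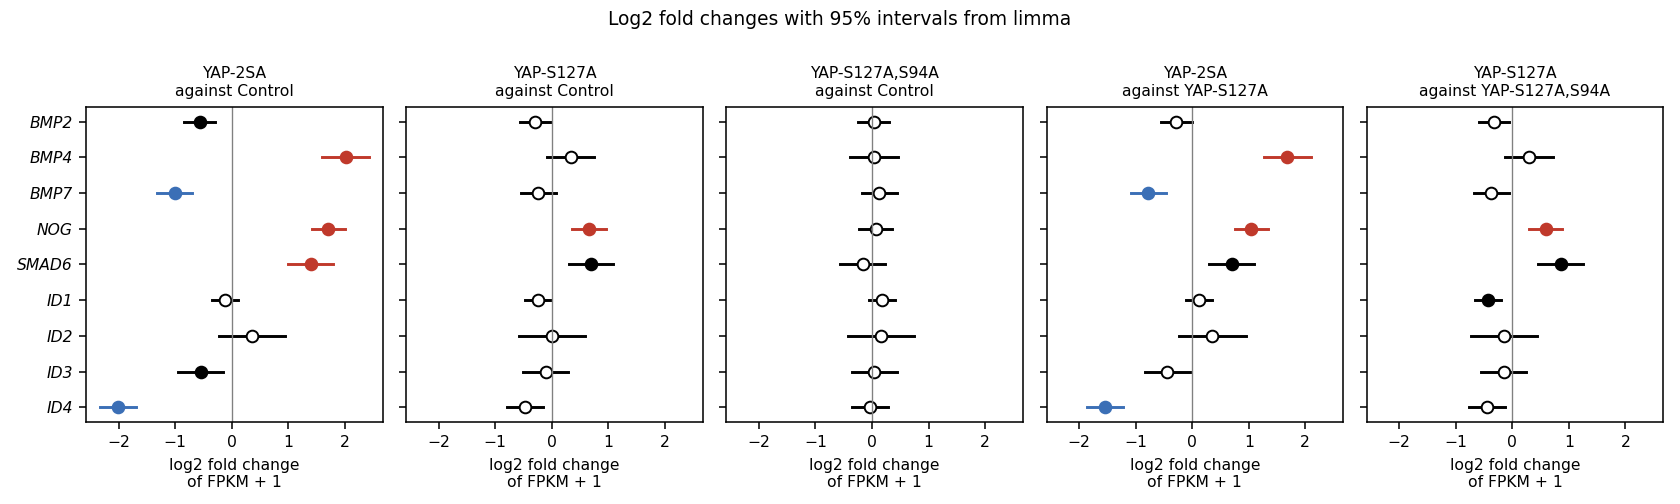
Log2 fold change of FPKM + 1 (horizontal axis) with its 95% interval from limma for the 9 genes tested (vertical axis) in the 5 comparisons. Red and blue mark a higher or lower gene past both thresholds, filled black a gene past the adjusted p alone, and open black neither. The intervals for YAP-S127A,S94A against Control all include 0. In YAP-2SA against Control those of BMP2, BMP4, BMP7, NOG, SMAD6, ID3 and ID4 exclude 0, and those of ID1 and ID2 include it.

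Other genes of the pathway were read from 7 lists with 60 genes in all, of which 38 could be tested. In YAP-2SA against Control, 8 were higher and 6 lower on both thresholds (36.8%, beside 15.5% of all loci), and 13 were higher and 12 lower on the adjusted p alone (65.8%, beside 42.3%). These shares are over the genes that passed the filter on low values, and are a description. The lists were also chosen with earlier results of these data known. GDF6 passed only through the 3 YAP-2SA libraries. BMP6, RGMA, CHRDL1 and HEY1, all called lower, reached 1 FPKM only in libraries outside YAP-2SA. In YAP-S127A against Control 2 were higher and none lower (5.26%, beside 2.47%), and in YAP-S127A,S94A against Control none passed either rule in limma (beside 0.173% on both thresholds), while 1 was higher and 2 were lower at an unadjusted p under 0.05. In YAP-2SA against YAP-S127A 4 were higher and 7 lower (28.9%, beside 11.1%), and in YAP-S127A against YAP-S127A,S94A 3 were higher and 1 lower (10.5%, beside 3.49%). Without Control replicate 3 the counts against Control were 7 higher and 6 lower in YAP-2SA, with 13 higher and 11 lower on the adjusted p alone, and again 2 higher in YAP-S127A. The counts that follow are for both thresholds.

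Among other BMP ligands, 3 of the 11 listed were expressed enough to be tested, and in YAP-2SA against Control 1 was higher and 2 were lower. GDF6, a ligand tied to skeletal joints and to melanocytic cells, rose from 0.0389 to 0.0512 FPKM in Control to 2.55 to 3.32 FPKM in YAP-2SA, with a log2 fold change of 1.92 (adjusted p = 4.97e-08 from limma). The means of GDF6 differed 67.2-fold, and adding 1 to every FPKM understates such a change on the log2 scale. Only the YAP-2SA libraries brought it past the filter, so it had to differ to be tested. It was between 0.717 and 0.851 FPKM in YAP-S127A (0.79 above Control, adjusted p = 5.31e-04) and at most 0.0928 FPKM in YAP-S127A,S94A. BMP6, an iron-regulating ligand, fell from a mean of 1.87 FPKM in Control to between 0.136 and 0.218 FPKM in YAP-2SA (log2 fold change -1.29, adjusted p = 4.18e-05). The means of BMP6 differed 11.4-fold. BMP8B, on a locus that also carries another transcript, had means of 15.5 FPKM in Control and 6.37 FPKM in YAP-2SA (log2 fold change -1.16, adjusted p = 6.77e-06).

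Among receptors and co-receptors, 8 of 11 were tested, with none higher and 1 lower in YAP-2SA against Control. RGMA, a membrane-anchored BMP co-receptor, had a mean of 0.981 FPKM in Control and 0.236 FPKM in YAP-2SA (a log2 change of -0.68, adjusted p = 0.00344, limma), a ratio of 4.16 that was 6.34 without YAP-2SA replicate 2. The co-receptors ENG (log2 fold change 0.57) and RGMB (0.39) were higher on the adjusted p alone, with ratios of 1.49 and 1.36. The type I receptor ACVR1 was lower on the adjusted p alone (log2 fold change -0.51, adjusted p = 7.41e-05, a ratio of 1.52), as ACVR2A also was without Control replicate 3 (adjusted p = 0.0432). The type I receptor BMPR1A was at a mean of 14.1 FPKM in Control and 12.3 FPKM in YAP-2SA (adjusted p = 0.0582). Of the 4 signal-carrying SMADs 3 were tested, and none passed the adjusted p in limma or an unadjusted p under 0.05 in any comparison. SMAD4, SMAD5 and SMAD1 had means of 18.9, 12.5 and 4.91 FPKM in Control and of 17.1, 12.1 and 4.39 FPKM in YAP-2SA, with SMAD4 and SMAD1 on loci shared with another symbol. SMAD9 was not tested and stayed at or below 0.345 FPKM.

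Of 15 extracellular antagonists listed, 7 were tested, and 4 were higher and 1 lower in YAP-2SA against Control. CRIM1, a transmembrane protein that tethers BMPs, was at 25.5 FPKM in Control and rose to 128 FPKM in YAP-2SA (log2 fold change 2.29, adjusted p = 2.91e-09 from limma). FSTL3 was at 10.4 FPKM in Control and rose to 66.4 FPKM in YAP-2SA (log2 fold change 2.57, adjusted p = 3.30e-09), and FST, which chiefly binds activins, was at 47.6 FPKM in Control and rose to 117 FPKM in YAP-2SA (log2 fold change 1.29, adjusted p = 6.96e-06). FSTL3 was also higher in YAP-S127A than in Control (27.2 FPKM, log2 fold change 1.32, adjusted p = 9.58e-06). The study counts CRIM1 and FSTL3 among established YAP/TAZ target genes. FSTL1, on a locus shared with MIR198, was at 3.41 FPKM in Control and rose to 103 FPKM in YAP-2SA (log2 fold change 4.60, SE 0.94, adjusted p = 0.00245). The shared fit holds 1 YAP-S127A,S94A library, replicate 2, at 84.0 FPKM while the lowest of that group was at 2.92 FPKM, and without it FSTL1 also passed in YAP-S127A against Control (log2 fold change 2.39, adjusted p = 7.51e-05).

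CHRDL1, a chordin-like BMP antagonist, was the antagonist that fell, with 5.45 FPKM in Control and 0.674 FPKM in YAP-2SA (log2 fold change -1.94, adjusted p = 1.40e-06 from limma, a ratio of 8.09). It was also lower in YAP-S127A than in YAP-S127A,S94A by a ratio of 2.00, and lost that call without YAP-S127A,S94A replicate 1 or YAP-S127A replicate 1 or 3. NBL1 (log2 fold change 0.41) and TWSG1 (0.27) were higher in YAP-2SA on the adjusted p alone. The NBL1 locus also carries MINOS1 and C1orf151-NBL1, so its values are not those of NBL1 alone.

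Among 7 intracellular and membrane inhibitors, all tested, 1 was higher and 1 lower in YAP-2SA against Control. BAMBI, a decoy receptor that lacks the kinase part and is itself BMP-induced, fell from 29.0 to 31.4 FPKM in Control to 1.82 to 2.82 FPKM in YAP-2SA, a 13.1-fold difference (log2 fold change -3.25, adjusted p = 1.49e-09 from limma). It was between 25.0 and 25.8 FPKM in YAP-S127A and between 29.2 and 32.7 FPKM in YAP-S127A,S94A. The ubiquitin ligase SMURF2 rose 2.05-fold (log2 fold change 0.98, adjusted p = 4.48e-05), and its ratio fell under 2 without Control replicate 3, without YAP-2SA replicate 2 and after quantile normalization. SKI, SMURF1 and PPM1A had adjusted p values of 0.0652, 0.869 and 0.579. SKIL, a SMAD co-repressor related to SKI, was lower on the adjusted p alone (log2 fold change -0.77, adjusted p = 1.52e-04, a ratio of 1.91) and met both thresholds without YAP-2SA replicate 1. SMAD7, the inhibitory SMAD that acts on both BMP and TGF-β signals, was lower on the adjusted p alone, at a mean of 2.94 FPKM against 4.56 FPKM in Control. The inhibitors SMAD6 and BAMBI, both known as BMP-induced genes, thus moved in opposite directions.

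Of 9 other BMP target genes, 7 were tested, and 2 were higher and 1 lower in YAP-2SA against Control. The homeobox gene MSX1 was at 7.58 FPKM in Control and rose to 22.6 FPKM in YAP-2SA (log2 fold change 1.47, adjusted p = 4.23e-06 from limma), and GATA2 was at 3.50 FPKM in Control and rose to 8.27 FPKM in YAP-2SA (log2 fold change 1.04, adjusted p = 3.66e-06). HEY1, also a Notch target, was at 2.65 FPKM in Control and fell to 0.386 FPKM in YAP-2SA (log2 fold change -1.39, adjusted p = 3.25e-05, a ratio of 6.86). ATOH8 was lower than in YAP-S127A by a ratio of 2.11 (adjusted p = 0.0118), a call it lost without YAP-S127A replicate 3 or YAP-2SA replicate 2. Against Control it was lower in YAP-2SA on the adjusted p alone (log2 fold change -0.69, adjusted p = 0.0170, a ratio of 1.96). It met both thresholds there without Control replicate 1 or 2 or YAP-2SA replicate 1 or 3, and passed neither without Control replicate 3 (adjusted p = 0.0670, a ratio of 1.65). MSX2 was higher than in Control on the adjusted p alone (ratio 1.79), and RUNX2 and GATA3 did not pass. Of the 3 E proteins that ID proteins capture, none met both thresholds in limma, and 2 were lower at the adjusted p, or 1 without Control replicate 3. TCF12 (43.9 FPKM in Control, 22.6 FPKM in YAP-2SA, ratio 1.95) and TCF4 (4.14 and 2.62 FPKM, ratio 1.58) were those genes, with TCF4 the one that did not pass without that library (adjusted p = 0.0564). TCF3 was at 54.0 FPKM in Control and 83.9 FPKM in YAP-2SA (adjusted p = 0.113). TCF12 was past both thresholds without Control replicate 1, without YAP-2SA replicate 2 and after quantile normalization.

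**Figure D4:**
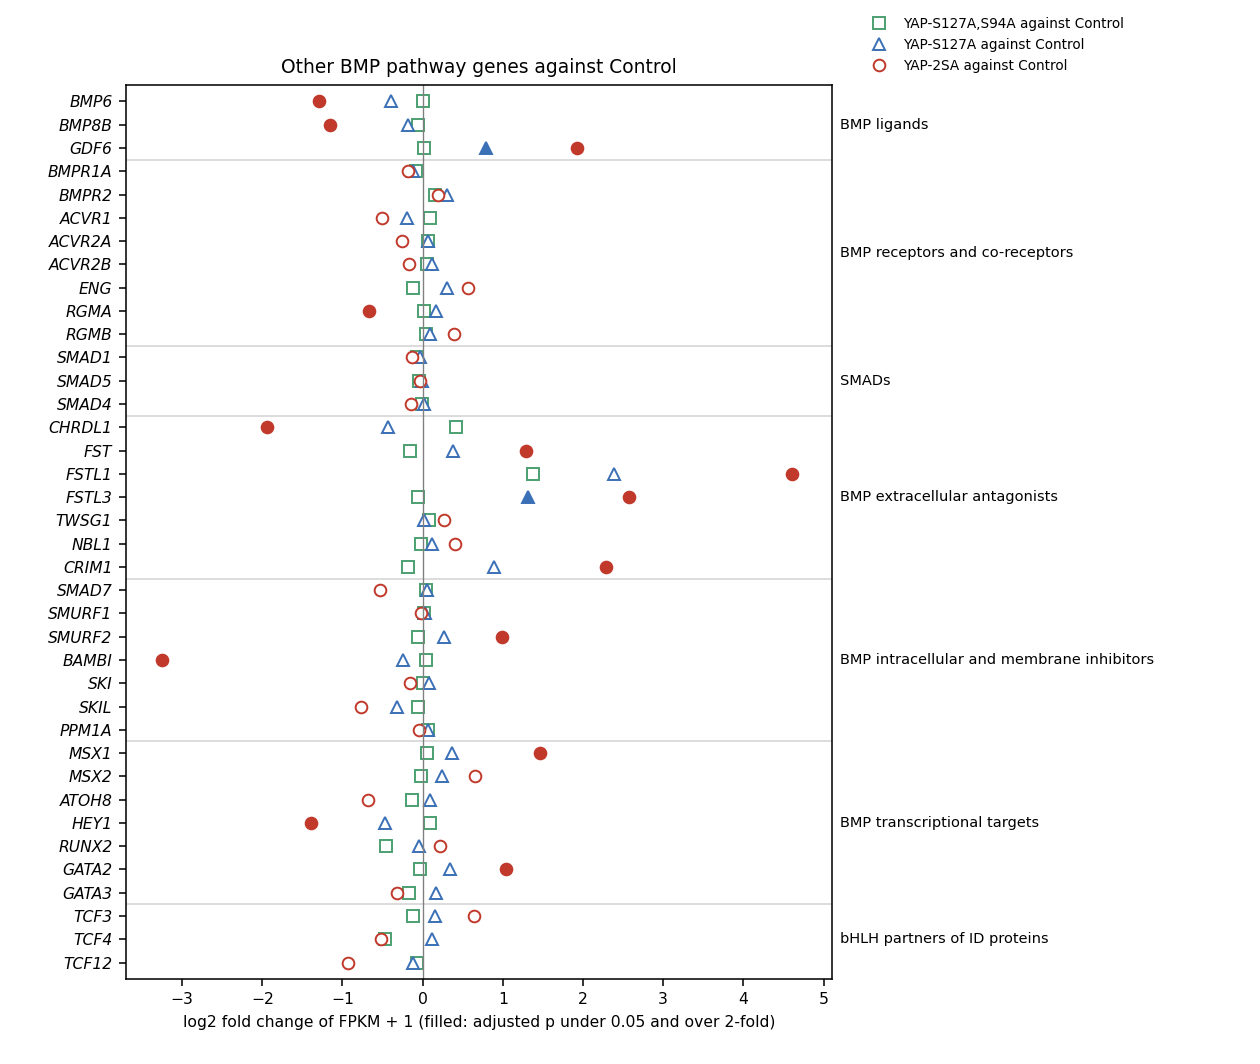
Log2 fold change of FPKM + 1 against Control (horizontal axis) for the 38 pathway genes tested (vertical axis, by list) in YAP-S127A,S94A (squares), YAP-S127A (triangles) and YAP-2SA (circles), filled where both thresholds were met. Filled circles lie on both sides of 0, from BAMBI at -3.25 to FSTL1 at 4.60, and no square is filled.

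For each member that met both thresholds, the loci whose log2 values followed it most closely over the 12 libraries were sought among 12023 tested loci with a single symbol. The measure is Pearson's r, given as a description. All 12 points share 4 groups, so a high r mostly reflects the same order of group means. For BMP4 these were RAB15 (r = 0.992), BID (0.983) and RALB (0.980), and for BMP7 they were PLIN2 (0.981), ZNF436 (0.980) and LAPTM5 (0.979). For NOG they included CDC25B (0.995) and RASGRF1 (0.990), and for SMAD6 they were SLC7A5 (0.989), VIPR1 (0.988) and BAX (0.987). For ID4 they were RLBP1 (0.991), ZFPM2 (0.990) and TRIB2 (0.990). RLBP1 was at 3.81 FPKM in Control, 4.01 FPKM in YAP-S127A,S94A, 2.09 FPKM in YAP-S127A and 0.0254 FPKM in YAP-2SA, beside 3.78, 3.64, 2.44 and 0.173 FPKM for ID4. RASGRF1 was at 0.186, 0.226, 0.754 and 2.25 FPKM in the same order of groups, beside 0.125, 0.178, 0.772 and 2.70 FPKM for NOG. No member was among the 3 most alike of another.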

How the data were processed

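RNA from 3 replicates of each of 4 A375 lines, taken as replicate platings, was sequenced by the authors (TruSeq libraries, HiSeq). Per the submitters' processing notes and the study's methods, reads were aligned to hg19 (GRCh37) with TopHat2 2.0.4 and Bowtie2 2.0.0, after bcl2fastq 2.15.0, and assembled with Cufflinks 2.0.2. The authors deposited 1 table of log2(FPKM + 1) values per locus and library, whose log2 scale was checked on the values. FPKM is normalized to transcript length and mapped fragments, so depth is unknown and the number of libraries sets the precision. The treatment of multiply mapped reads is not given in the sources used here. Of 31588 entries, 3 identical ones were removed. No library pair held identical values.

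limma 3.58.1 (R 4.3.3) was fitted to the deposited values of all 12 libraries with 1 mean per group and a trended eBayes prior, giving 5 comparisons over the 15055 loci with at least 1 FPKM in at least 3 libraries. p values were adjusted by Benjamini-Hochberg over all loci tested. Folds are ratios of group mean FPKM without a pseudocount. A two-sided exact permutation test with 3 libraries per group has a smallest p of 0.1 and was not used. The fit was tested on simulated data. The 10 members and the pathway and marker lists were chosen with earlier results of these data known. Named were all members, every listed pathway gene past both thresholds in a comparison, up to 3 others per list by mean FPKM, and the 3 loci most like each called member, of which 1 is not reported here. SMAD7, SKIL, ACVR1 and ACVR2A were named in addition, after their values were seen. Gene coordinates were taken from GENCODE (GRCh37) and promoters from RefSeq. Alternatives were a pseudocount of 0.1, no filter, at least 1 FPKM in 6 libraries, median-ratio scaling, quantile normalization, a replicate block, a fit of only the 6 libraries compared, no fold threshold and each library left out in turn. Counts and values of the pathway lists under them were added after seeing the data. Plots were made with matplotlib 3.10.9 (Python 3.11.15).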

Additional observations from a re-analysis of the deposited data

How the results depend on the processing

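In YAP-2SA against Control and against YAP-S127A the counts of members past both thresholds stayed within 1.5 times of 5 and 4 under every alternative run, and BMP4, BMP7, NOG, SMAD6 and ID4 met both against Control wherever they were tested (NOG was not tested with the stricter filter, by which it falls away). With single libraries left out the first count ran from 5 to 6, with BMP2 added. In YAP-S127A against Control the count of 1 became 2 with no fold threshold and 0 with the stricter filter, and 0 to 1 with single libraries left out. In YAP-S127A against YAP-S127A,S94A the count of 1 became 3 with no fold threshold and 0 with the stricter filter, and 0 to 2 with single libraries left out. YAP-S127A,S94A against Control gave 0 under each alternative.

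Differences near 0 changed sign. In YAP-S127A against Control, ID2 went from 0.003 to -0.0085 with median-ratio scaling and to -0.011 with quantile normalization, and ran from -0.11 to 0.15 with single libraries left out, as ID3 ran from -0.22 to 0.024. In YAP-S127A,S94A against Control, the same step gave -0.20 to 0.22 for BMP4, -0.057 to 0.18 for ID3, -0.17 to 0.0655 for ID4, -0.043 to 0.22 for BMP7 and -0.039 to 0.097 for BMP2. The cause was not tested. Of 170 single-gene values per comparison, 3 in YAP-2SA against Control, 15 in YAP-S127A against Control and 10 in YAP-S127A against YAP-S127A,S94A lost the adjusted p, 3 in YAP-2SA against YAP-S127A and 2 in each of the YAP-S127A comparisons with Control and YAP-S127A,S94A gained it, and 7 in YAP-S127A against Control and 7 in YAP-S127A,S94A against Control changed sign.

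The replicate numbers did not pair the samples: the 18 correlations of deviations between same-numbered libraries ran from -0.149 to 0.163, only 2 were over 0.1, and 5 of 12 libraries correlated best with their own number. With the replicate number as a block, ID3 in YAP-2SA against YAP-S127A passed the adjusted p (log2 fold change -0.44, adjusted p = 0.00114 from limma), and no other call of a member changed, so that the counts stayed at 5, 1, 0, 4 and 1. Unknown depth limits the low values of NOG, GREM1, BMP7 and ID4 most.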
